A study of Sus scrofa with 48 samples.

Results

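The oxidative phosphorylation (OXPHOS) machinery was examined subunit by subunit in pig subcutaneous adipose tissue (SCAT). The set comprised 59 nuclear gene symbols of complexes I to V. A microarray probe was taken for a gene when the name or accession in the scanner file gave that symbol and the scanner software flagged the spot as clearly brighter than background for 9 or more pigs of any group of 12. The brightest such probe stood for the gene. This left 54 subunits of 11275 genes tested: 22 of complex I, 3 of complex II, 8 of complex III, 10 of complex IV and 11 of complex V. No named probe was used for NDUFB10, NDUFS7, NDUFA5, SDHC and COX8A. NDUFA4 was counted with complex IV.

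RNA of 48 Large White barrows aged 132 days, 1 pig per array, was hybridised to single-colour Agilent arrays of 60-base probes. The pigs came from a low and a high line bred apart on residual feed intake (RFI), low RFI marking better feed efficiency. All were fed ad libitum, either a diet rich in fat and fiber (HF) or a low-fat, low-fiber, starch-rich diet (LF) of matched energy and protein content. Each combination of diet (HF or LF) and line (low or high RFI) held 12 pigs. The paper reports that HF pigs ate less than LF pigs and ended lighter and with less body fat. The diets differ in fat, fiber and starch together, so a diet difference cannot be assigned to any of these nutrients. Nor can it be separated from feed intake or body mass. Likewise, the RFI groups are selected lines of 1 breed.

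OXPHOS couples the oxidation of NADH and succinate to ATP synthesis across the inner mitochondrial membrane. Complexes I and II pass electrons to ubiquinone, complex III passes them on to cytochrome c and complex IV to oxygen, while complexes I, III and IV pump protons that drive the ATP synthase, complex V. White adipocytes hold few mitochondria beside brown adipocytes or muscle fibres, and use them for ATP, for the pyruvate-derived carbon of fatty acid synthesis and for glycerol formation. Nuclear genes encode most subunits, and mitochondrial DNA encodes the remainder, which lie in the membrane-embedded parts of complexes I, III, IV and V.

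The probes that carried the diet result are printed here so that the measured stretch of each transcript can be seen. They are given 5′ to 3′ as listed in the scanner files, in lower case, and capitals mark AATAAA, the common polyadenylation signal. NDUFA6 and UQCRQ are shown with their other probe.
NDUFA6: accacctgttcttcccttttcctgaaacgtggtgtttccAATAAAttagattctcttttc
NDUFA6, other probe: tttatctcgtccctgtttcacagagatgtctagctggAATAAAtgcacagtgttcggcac
NDUFA12: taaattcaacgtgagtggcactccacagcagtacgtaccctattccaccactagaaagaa
UQCRQ: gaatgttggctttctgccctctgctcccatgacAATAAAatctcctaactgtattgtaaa
UQCRQ, other probe: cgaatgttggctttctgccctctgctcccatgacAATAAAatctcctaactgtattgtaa
UQCR10: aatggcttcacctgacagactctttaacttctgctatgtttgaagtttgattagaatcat
COX6A1: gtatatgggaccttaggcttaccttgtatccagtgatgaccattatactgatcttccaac
ATP5D: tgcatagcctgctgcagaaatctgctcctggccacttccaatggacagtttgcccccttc
ATP5F1: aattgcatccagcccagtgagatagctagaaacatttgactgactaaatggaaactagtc

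The UQCRQ probes shared a run of 59 bases and therefore read the same stretch, whereas the NDUFA6 probes shared no run over 7 bases. AATAAA occurred in 2 of these 7 brightest probes, in 11 of the 54 brightest subunit probes (20.4%) and in 15.1% of the brightest probes of all genes. Its reverse complement, TTTATT, occurred in 0 of the 54 and in 4.56% of all genes. A match describes the letters of the probe only.

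Arrays had 62.2 to 81.9% of probes well above background (median 74.7%). Slides were balanced, each of the 6 holding 2 pigs of every group, and the 2 scan dates held 6 pigs of every group each. Array positions were not balanced over groups. Levels below are log2 signals relative to the median probe of the same array, and differences between groups are log2 differences. All 10 adipocyte markers passed the background filter, as did most markers of other cell types, and ADIPOQ (adiponectin) lay at a median of 9.21 under HF and 9.13 under LF. One pig stood apart in the OXPHOS genes. In LF low RFI replicate 7 all 54 subunits were below their 48-pig mean, and that array had the second lowest limma array weight, with 75.4% of its probes above background.

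The first question was whether diet changed OXPHOS transcripts. A gene was called when its unadjusted p was under 0.01, its fold change over 1.1 and its Benjamini-Hochberg adjusted p, over all genes tested, under 0.08 (limma). In HF pigs 7 of the 54 subunits were down-regulated (13.0%) and 0 were up-regulated. Among all genes 9.27% were called lower and 3.33% higher under HF, 12.6% in total, so in this fit the share of subunits called was close to the background. The share was not stable. It was 40.7% without LF low RFI replicate 7 (14.4% of all genes called) and 59.3% with array weights (18.4%). On scan date 2 alone it was 0% (2.34%). The called subunits were NDUFA6 and NDUFA12 of complex I, UQCRQ and UQCR10 of complex III, COX6A1 of complex IV, and ATP5D and ATP5F1 of complex V. No complex II subunit was called. In bulk tissue, less RNA per cell and fewer cells of a type cannot be told apart.

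The direction was shared more widely than the calls. Under HF 51 of the 54 subunits had the lower mean, against 62.2% of all genes, and 23 had an unadjusted p under 0.05, all of them lower, against 18.6% of all genes lower and 25.8% in either direction. That count was 37 without LF low RFI replicate 7 (28.2% of all genes in either direction, 20.7% lower). It was 11 after 75th percentile scaling (23.5% of all genes, 11.1% lower), 14 after quantile normalization (24.7%, 14.5% lower) and 12 with array position as a block (20.8%, 14.6% lower). The median diet difference of the subunits was -0.14 against -0.04 over all genes. Because subunits rise and fall together in a pig, these 54 values are not independent. Scaling arrays to their 75th percentile moved the median of all genes from -0.039 to 0.002, and 46 of 54 subunits were then lower (49.4% of all genes), with a median of -0.10 and 5 calls (5.1% of all genes called lower).

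**Figure D1:**
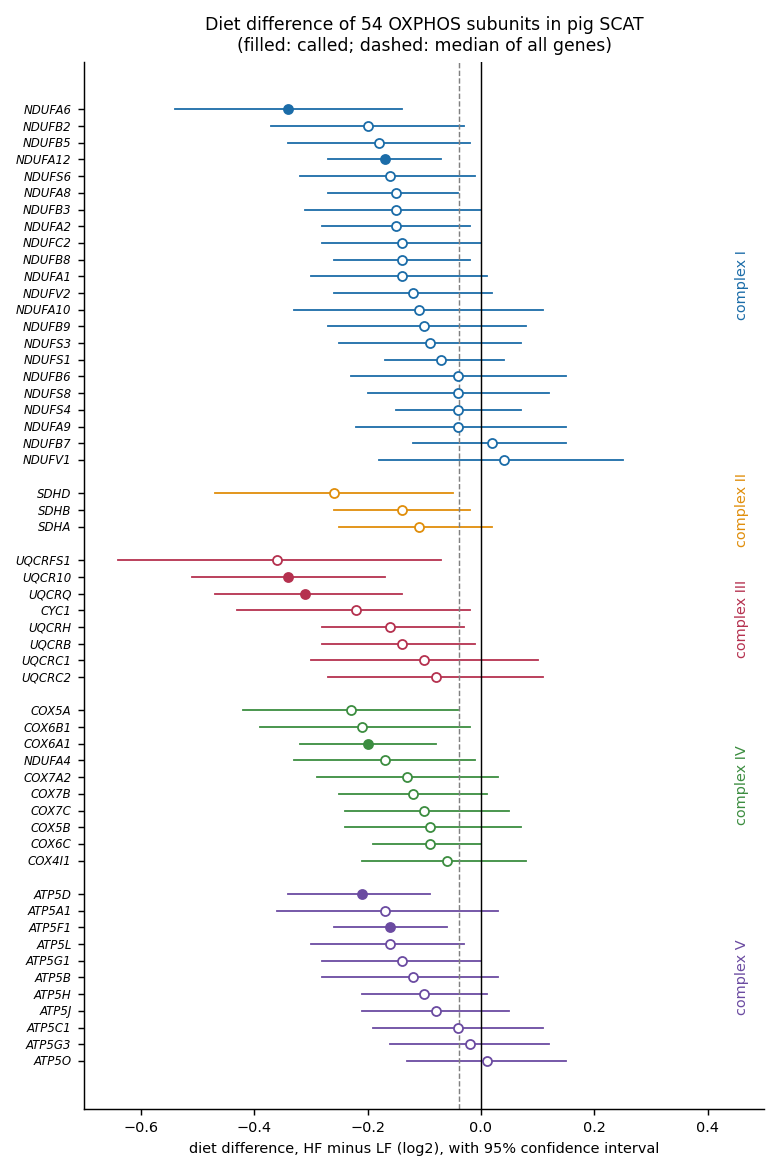
Diet difference (HF minus LF, log2, with 95% confidence interval) of 54 subunits, grouped by complex; filled points were called and the dashed line is the median of all genes, -0.039. NDUFV1, NDUFB7 and ATP5O alone lie right of 0, and the called subunits lie between -0.34 and -0.16.

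Complex I takes electrons from NADH in a matrix arm, made of the NADH-oxidising N module and the ubiquinone-reducing Q module, and pumps protons in a membrane arm. Of its 22 subunits 20 were lower under HF, with a median of -0.13, and 2 were called, both accessory subunits of the matrix arm. NDUFA6, which anchors the mitochondrial acyl carrier protein, ranged from 2.41 to 3.91 (median 3.48) in LF low RFI pigs and from 2.94 to 4.15 (median 3.62) in LF high RFI pigs. Under HF it ranged from 2.85 to 3.47 (median 3.18) in low RFI pigs and from 2.56 to 3.59 (median 3.21) in high RFI pigs. The groups overlapped, but 23 of 24 HF pigs lay below the LF mean. NDUFA6 was lower under HF by 1.27-fold (log2 -0.34, SE 0.10, adjusted p = 0.0174 by limma). Its other probe gave -0.18 and was not called.

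NDUFA12 ranged from 4.49 to 4.96 (median 4.69) in LF low RFI, from 4.42 to 5.04 (median 4.79) in LF high RFI, while under HF it ranged from 4.29 to 4.80 (median 4.56) in low RFI and from 4.29 to 4.69 (median 4.59) in high RFI pigs. The ranges overlapped, with 20 of 24 LF pigs above the HF mean. The difference was -0.17 (SE 0.05, adjusted p = 0.0197 by limma), and it was not called after 75th percentile scaling (-0.13, adjusted p = 0.0712) or quantile normalization (-0.11, adjusted p = 0.0891). Nor was it called on scan date 1 alone (-0.18, adjusted p = 0.0881 by limma) or scan date 2 alone (-0.16, adjusted p = 0.355 by limma).

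The remaining complex I subunits did not pass in the main analysis. Within the N module, which holds the flavin and the first iron-sulfur clusters, 7 of 8 subunits were lower (median -0.14). NDUFV1, the flavin-binding subunit that oxidises NADH, was at 0.04 (SE 0.11), with medians of 0.50 under HF and 0.55 under LF. In the Q module NDUFS3, NDUFS8 and NDUFA9 had differences of -0.09 to -0.04. In the membrane arm 10 of 11 were lower, with differences of -0.20 (NDUFB2) to 0.02 (NDUFB7). NDUFB7, a subunit on the intermembrane-space side, had medians of 4.02 under HF and 4.09 under LF. NDUFA8, from the same side, lay just outside the threshold (-0.15, p = 0.0113, adjusted p = 0.0788 by limma), and its other probe, which shared 41 bases with the first, was called (-0.17). NDUFA8 became a call with slide, scan date or replicate number as a block, with the mean of its probes, with array weights, without either set of 3 arrays (fewest probes above background or lowest weights) and in the authors' deposited table. The other N module subunits NDUFS6 (-0.16), NDUFA2 (-0.15), NDUFV2 (-0.12), NDUFS1 (-0.07) and NDUFS4 (-0.04), and the other membrane arm subunits NDUFB5, NDUFB3, NDUFC2, NDUFB8, NDUFA1, NDUFA10, NDUFB9 and NDUFB6, at -0.18 to -0.04, did not pass.

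Complex II, succinate dehydrogenase, feeds electrons from the citric acid cycle into ubiquinone and pumps no protons. Its 3 measured subunits were lower under HF and none was called. SDHD, a membrane anchor, ranged from 5.23 to 6.44 (median 5.90) under HF and from 5.26 to 6.75 (median 6.21) under LF. These ranges overlapped almost fully. SDHD differed by -0.26 (SE 0.10, adjusted p = 0.0995 by limma), and became a call with slide as a block (adjusted p = 0.0492). It was also called with scan date or replicate number as a block, with array weights and without the 3 arrays of lowest weight. With array position as a block or with the mean of its probes it was not called. SDHD is read by 9 probes, of which the remaining 8 gave lower values under HF in 7 cases and 0.11 in the other. SDHB, the iron-sulfur subunit, was at -0.14 and SDHA, the flavoprotein, at -0.11 (SE 0.07). The medians of SDHA were 7.83 under HF and 8.02 under LF.

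Complex III, the cytochrome bc1 complex, had the lowest median of the complexes, -0.19, with 8 of 8 subunits lower under HF and 2 called; no test between complexes was made. UQCR10, a small accessory subunit, ranged from 6.31 to 7.51 (median 7.24) in LF low RFI, from 6.60 to 7.55 (median 7.23) in LF high RFI, from 6.41 to 7.34 (median 6.82) in HF low RFI and from 6.24 to 7.15 (median 6.73) in HF high RFI pigs. Both LF medians lay above every HF high RFI pig but not above every HF low RFI pig, and 21 of 24 HF pigs lay below the LF mean. UQCR10 was lower by 1.26-fold under HF (-0.34, SE 0.09, adjusted p = 0.00752 by limma), the smallest adjusted p of the subunits.

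UQCRQ, another small accessory subunit, ranged from 4.44 to 5.63 (median 5.43) in LF low RFI, from 4.86 to 6.01 (median 5.53) in LF high RFI, from 4.77 to 5.59 (median 5.04) in HF low RFI and from 4.69 to 5.36 (median 5.06) in HF high RFI pigs. The lowest LF value was below every HF value, although 20 of 24 LF pigs exceeded the HF mean. The difference was -0.31 (SE 0.08, adjusted p = 0.0108 by limma), and -0.29 on its overlapping probe, which was called too.

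The electron-carrying subunits of complex III were not called in the main analysis. In that analysis UQCRFS1, the Rieske iron-sulfur protein, had the largest difference of all 54 subunits, -0.36, but also a large SE of 0.14 (adjusted p = 0.0943 by limma). Its probe was dim, from -3.63 to -2.18 under HF and from -3.47 to -0.46 under LF. The normexp background correction brought the difference to -0.20 with an adjusted p of 0.0559 by limma, which was a call. With that correction UQCRFS1 no longer had the largest difference, as NDUFA6 was at -0.30. UQCRFS1 was also called with array weights (-0.43, adjusted p = 0.0122 by limma) and without the 3 arrays of lowest weight (-0.44). CYC1, cytochrome c1, was at -0.22 (SE 0.10). UQCRH, the hinge protein, was at -0.16 and just missed the call (adjusted p = 0.0936 by limma), while its other probe, with no shared run over 5 bases, was called at -0.21 (adjusted p = 0.0336 over all probes). UQCRB, an accessory subunit, was at -0.14. The core proteins UQCRC1 (-0.10) and UQCRC2 (-0.08, SE 0.09) differed least, UQCRC2 with medians of 4.62 under HF and 4.78 under LF.

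Complex IV, cytochrome c oxidase, was measured through 10 nuclear-encoded subunits, which surround the catalytic core encoded by mitochondrial DNA. All 10 were lower under HF, with a median of -0.12, and 1 was called. COX6A1, the form of subunit VIa found outside heart and skeletal muscle, ranged from 7.84 to 8.68 (median 8.47) in LF low RFI, from 8.14 to 8.74 (median 8.40) in LF high RFI, from 8.01 to 8.54 (median 8.14) in HF low RFI and from 7.80 to 8.57 (median 8.18) in HF high RFI pigs. The ranges overlapped, and 19 of 24 HF pigs lay below the LF mean. It differed by -0.20 (SE 0.06, adjusted p = 0.0224 by limma). Of its other 7 probes all were lower and 6 were called, the extreme being -0.37. COX5A had the largest difference of complex IV, -0.23 (SE 0.09, adjusted p = 0.0986 by limma), and COX4I1 the smallest, -0.06 (SE 0.07). Their medians were 6.17 and 1.90 under HF and 6.51 and 1.95 under LF, in that order. COX6B1 (-0.21), NDUFA4 (-0.17), COX7A2 (-0.13), COX7B (-0.12), COX7C (-0.10), COX5B (-0.09) and COX6C (-0.09) were not called.

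Complex V, the ATP synthase, turns proton flow through a membrane c ring into ATP formation in the F1 head, which a central stalk drives and a peripheral stalk holds still. Of its 11 subunits 10 were lower, with a median of -0.12, and 2 were called. ATP5D (now ATP5F1D), the delta subunit of the central stalk, ranged from 5.58 to 6.54 (median 6.40) in LF low RFI, from 5.89 to 6.54 (median 6.36) in LF high RFI, from 5.82 to 6.38 (median 6.08) in HF low RFI and from 5.75 to 6.34 (median 6.05) in HF high RFI pigs. The LF low RFI median lay above every HF pig, yet the lowest pig of all was an LF pig. ATP5D differed by -0.21 (SE 0.06, adjusted p = 0.0206 by limma), and its other 2 probes were called as well. With array position as a block ATP5D lost the call (-0.19, adjusted p = 0.0876 by limma).

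ATP5F1 (now ATP5PB), subunit b of the peripheral stalk, ranged from 6.21 to 6.73 (median 6.52) in LF low RFI, from 6.37 to 6.85 (median 6.63) in LF high RFI, from 6.09 to 6.69 (median 6.43) in HF low RFI and from 6.22 to 6.63 (median 6.42) in HF high RFI pigs. All 4 ranges overlapped. It had the smallest difference of the called subunits, -0.16 (SE 0.05, adjusted p = 0.031 by limma), and lost the call after 75th percentile scaling, quantile normalization, averaging of probes or with array position as a block. On scan date 1 and 2 alone it gave -0.18 and -0.14. ATP5O, the oligomycin-sensitivity protein at the top of the same stalk, differed least, by 0.01 (SE 0.07). The catalytic F1 subunits ATP5A1 (-0.17) and ATP5B (-0.12) were not called, nor were the c-ring genes ATP5G1 (-0.14) and ATP5G3 (-0.02). ATP5L (-0.16), ATP5H (-0.10), ATP5J (-0.08) and ATP5C1 (-0.04) did not pass either.

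**Figure D2:**
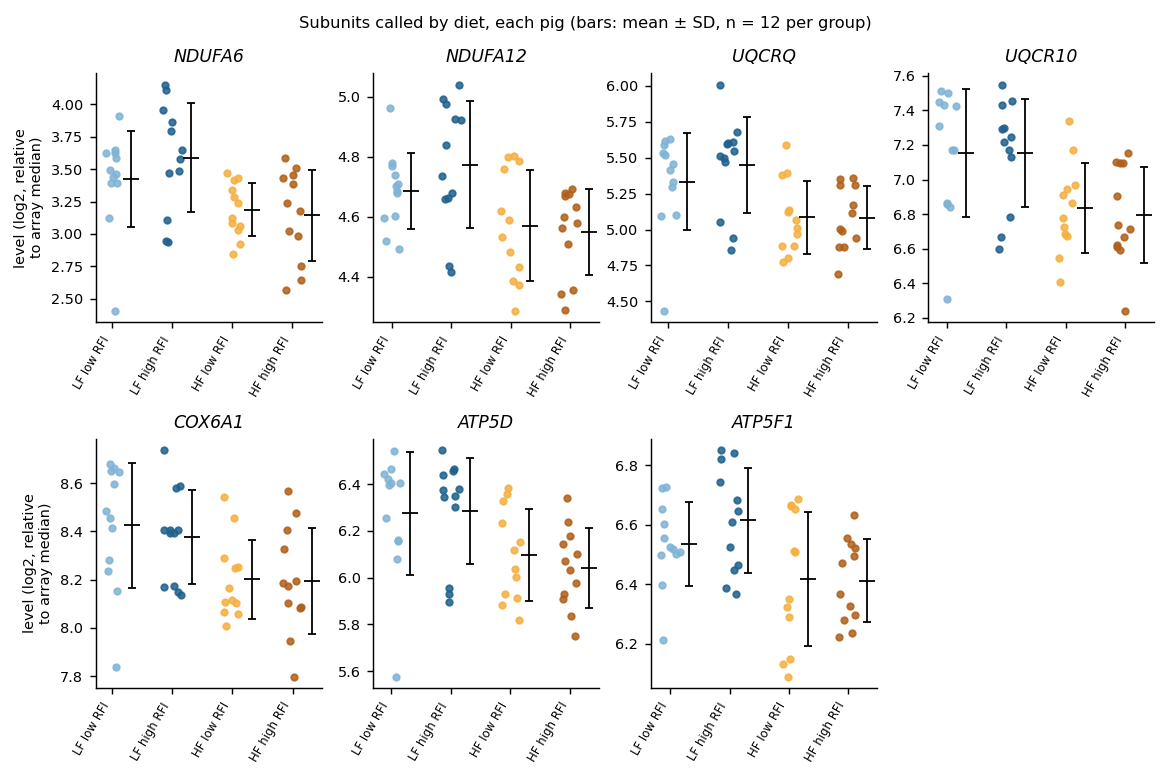
Level of each subunit called by diet (log2, relative to the array median) in each pig of the 4 groups, with mean and SD (n = 12 per group). HF groups lie lower in all 7 panels, every panel overlaps between diets, and in NDUFA6, UQCRQ and ATP5D a single LF low RFI pig lies below all others.

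Probes of the same gene mostly agreed in sign. The array held 192 probes for the 54 subunits, of which 188 passed the background filter. Of these, 180 were lower under HF and 23 were called, all lower (7.44% of all 44356 probes were called lower). Among 33 subunits with more than 1 probe, 28 had every probe lower. In NDUFA8, SDHB and UQCRH the brightest probe was not called but another was. Of the called subunits, 5 had further probes, whose calls are given above except for ATP5F1, where 4 of 12 others were called and all 12 were lower.

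The level of a whole complex in a pig was taken as the mean, over its subunits, of the difference from each subunit's 48-pig mean. The complexes moved together between pigs: in 36 of 48 pigs all 5 complexes lay on the same side of 0, below in 16 and above in 20. Over all subunits the level ranged from -0.39 to 0.28 (median -0.08) in the 24 HF pigs and from -0.71 to 0.36 (median 0.15) in the 24 LF pigs. Within groups its SD was 0.23, larger than the distance between the diet means, 0.07 and -0.07. The ranges overlapped fully, since the lowest pig was an LF pig, and 17 of 24 LF pigs but 8 of 24 HF pigs lay above 0.

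**Figure D3:**
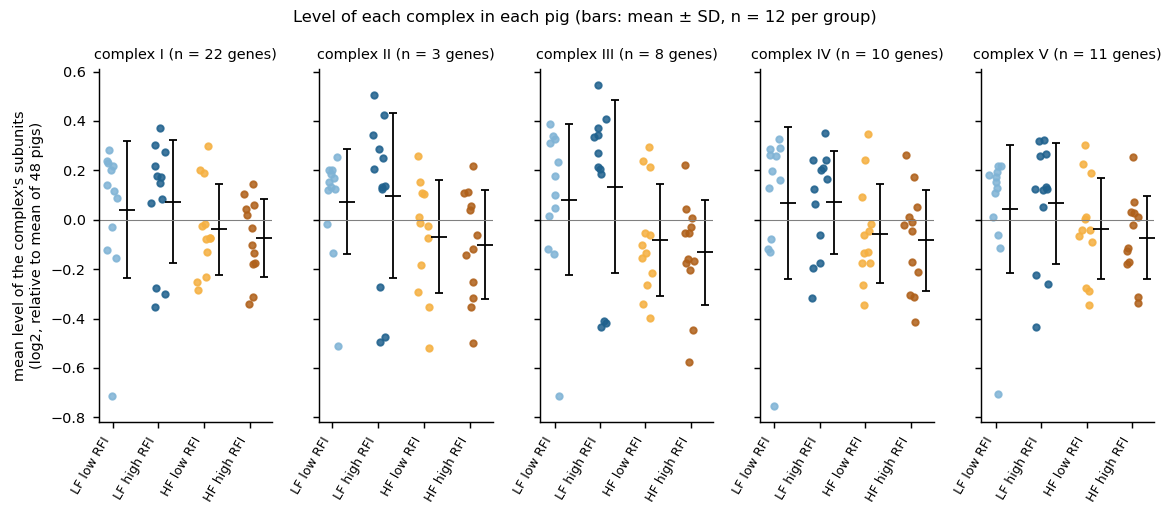
Mean level of the subunits of each complex in each pig (log2, relative to the 48-pig mean), with mean and SD of each group (n = 12). LF medians lie above HF medians in every complex, and LF low RFI replicate 7 is the lowest point in complexes I, III, IV and V.

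The number of calls rose most when 1 of a few pigs, mainly LF pigs, was left out. Leaving out each of the 48 arrays in turn gave 7 to 22 subunits called by diet, with the 7 called subunits called in every one of the 48 fits. Without LF low RFI replicate 7, 22 subunits were called (40.7%, against 11% of all genes called lower) and 54 of 54 were lower. Calls numbered 14, 15 and 13 without LF high RFI replicates 10, 11 and 12 (10.1, 9.7 and 10.5% of all genes called lower), and 11 without HF high RFI replicate 2 (9.73%). Fitted with array weights, which give noisier arrays less influence, 32 subunits were called (59.3%, against 13.8% of all genes called lower). The 4 LF pigs named here had the lowest OXPHOS levels of the LF pigs, from -0.71 to -0.28, and all 4 arrays were of scan date 2, so these counts describe the influence of single pigs and are no separate evidence. Between scan dates the calls also differed, with 8 on date 1 alone (median difference -0.18, 4.92% of all genes called lower) and 0 on date 2 alone (median -0.10, limma, 1 subunit with unadjusted p under 0.05 against 16% of all genes, 10.8% lower). Scan date 2 alone gave 1.69% of all genes called lower. Only 4 of the 8 calls on date 1 were among the 7 called in the main analysis, and NDUFA12, COX6A1 and ATP5F1 were not called there.

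Per complex, the median diet differences on scan date 1 were -0.17, -0.18, -0.27, -0.18 and -0.15 for complexes I to V. On scan date 2 they were -0.08, -0.11, -0.12, -0.11 and -0.10. All 10 medians were below 0, and complex III was lowest on both dates. The 7 called subunits differed by -0.45 (NDUFA6) to -0.18 on date 1 and by -0.27 (UQCR10) to -0.13 (ATP5D) on date 2.

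The second question was whether the lines responded differently. Within low RFI pigs 49 of 54 subunits were lower under HF, with a median of -0.11, and within high RFI pigs the median was -0.16. The order of these medians did not hold: without LF low RFI replicate 7 they were -0.18 and -0.16, and with array position as a block -0.13 and -0.09. No subunit was called by diet within either line (limma, 12 pigs per group), where 2.44% of all genes were called within low RFI and 1.49% within high RFI. At an unadjusted p under 0.05 there were 4 subunits within low RFI pigs (14.9% of all genes) and 14 within high RFI pigs (13.8% of all genes). The most calls under an alternative came with array weights, 5 within low RFI (10.2% of all genes) and 13 within high RFI (6.16%). Without LF low RFI replicate 7 there were 5 (4.69%) and 2 (2.05%). With slide, scan date or replicate number as a block there were 0, 0 and 1 within low RFI (4.86, 3.72 and 5.96%). Within high RFI these blocks gave 3, 2 and 3 (3.73, 2.64 and 4.48%). No gene of the 11275 had a called diet-by-line interaction, and 0 subunits had an unadjusted interaction p under 0.05 by limma or by the analysis of variance (0.896% of all genes by limma). The gap was 0.26 for UQCRFS1, whose difference was -0.23 for low RFI and -0.49 for high RFI (interaction SE 0.28, p = 0.356 by limma).

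The difference was more negative in high RFI pigs for 44 of 54 subunits, against 53.5% of all genes. This count was not stable. It was 26 without LF low RFI replicate 7, 14 with array position as a block, 53 on scan date 1 and 25 on scan date 2.

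**Figure D4:**
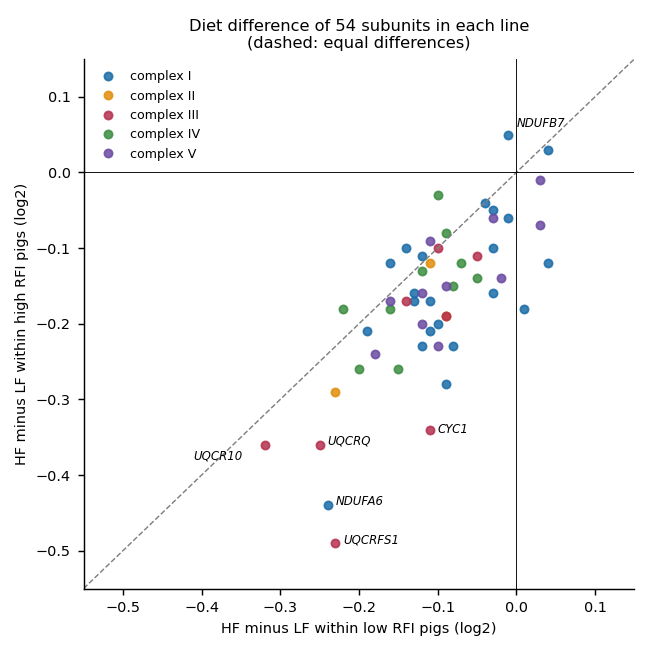
Diet difference (HF minus LF, log2) within low RFI pigs (horizontal axis) and within high RFI pigs (vertical axis) for 54 subunits, coloured by complex; the dashed line marks equal differences. Most points lie below both zero lines, and 44 lie below the dashed line.

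The third question was whether the lines themselves differed. No subunit was called by line, against 1.17% of all genes, and 0 subunits had an unadjusted p under 0.05 (limma and analysis of variance), against 10.3% of all genes. Low minus high RFI differences ranged from -0.10 (NDUFB7, SE 0.07, adjusted p = 0.703 by limma) to 0.08 (NDUFB9). The largest in size in each of the other complexes were SDHD -0.05, UQCRC2 -0.07, COX7C 0.04 and ATP5O -0.09. Complex medians were 0.01, 0.03, 0.00, 0.02 and 0.02, against 0.02 for all genes. The median over all subunits was -0.03 on scan date 1 and 0.06 on scan date 2, so no direction held. The median SE of the diet difference was 0.0754 for subunits and 0.077 for all genes; line differences had the same number of pigs on each side.

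At probe level, 2 probes of subunits were called by line (1.37% of all probes). Both were secondary. A probe of NDUFB9, a membrane arm subunit of complex I, differed by -0.42 (low minus high RFI), while the brightest NDUFB9 probe was at 0.08. A probe of UQCRB, an accessory subunit of complex III, differed by -0.50 (SE 0.12, adjusted p = 0.0242 over all probes by limma), while the brightest UQCRB probe was at 0.05. Each shared no run over 6 bases with the brightest probe of its gene, and the array's description of the UQCRB probe also names a pseudogene. The other probes of UQCRB gave 0.02 to 0.05 and those of NDUFB9 -0.14 to 0.08, none of them called by line. Because they disagree with the other probes of their genes, the called probes give an uncertain reading.

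Companion gene lists, chosen with earlier results of these data known, were set beside the subunits. Their counts are read against 62.2% of all genes lower and 9.27% called lower under HF. Of 18 other nuclear OXPHOS subunits tested, 17 were lower under HF and 3 were called lower: NDUFB1 (-0.37), USMG5, a small ATP synthase subunit (-0.28), and NDUFV3 (-0.23). All 13 subunits encoded by mitochondrial DNA were lower, with a median of -0.12, and 4 were called: ND1 (-0.18, SE 0.05), ND2 (-0.16), ATP8 (-0.15) and COX1 (-0.14). Their median was -0.15 within low RFI and -0.10 within high RFI pigs. At an unadjusted p under 0.05 (limma) there were 9 within low RFI (14.9% of all genes) and 0 within high RFI (13.8%). For 0 of 13 the difference was more negative in high RFI pigs (53.5% of all genes). The unadjusted interaction p was under 0.05 for 0 of 13. After quantile normalization 11 of 13 were lower (55.6% of all genes), with a median of -0.059. ND1 and ND2 belong to the membrane arm of complex I, COX1 is the catalytic subunit of complex IV and ATP8 belongs to the membrane part of complex V. The mean level of these 13 transcripts ranged from -0.32 to 0.28 under HF and from -0.20 to 0.37 under LF. No LF pig was therefore as low in them as LF low RFI replicate 7 was in the nuclear subunits (-0.71). Where that pig lay within the LF range is not given here.

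Among 22 assembly factors tested of 49 listed, 17 were lower and 3 were called lower, a share near that of all genes. These were NDUFAF4, for complex I (-0.29), and COX16 (-0.24) and COX17, a copper chaperone (-0.21), for complex IV. Of 15 genes for electron carriers and exchange of ADP for ATP, 2 were called lower and 1 higher, again near the share of all genes. CYCS, the cytochrome c that links complexes III and IV, differed by -0.39 (SE 0.09, adjusted p = 0.00186 by limma). SLC25A4, an ADP/ATP carrier, was at -0.27 and UCP3, an uncoupling protein homologue, was higher at 0.29. Of 64 mitochondrial ribosome genes, 51 were lower and 11 were called, all lower, with MRPL35 (-0.33), MRPL19 (-0.28) and MRPL4 (-0.26) the largest. None of 13 regulators of mitochondrial genes was called by diet (limma, 0 with unadjusted p under 0.05, median -0.05). Of 4 tissue isoforms tested 1 was called lower, NDUFA4L2 (-0.17). By line, MRPL9 (0.25), MRPL15 (0.21) and TFB1M, a mitochondrial rRNA methyltransferase (0.28), were called higher in low RFI pigs, where 1.17% of all genes were called by line.

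**Figure D5:**
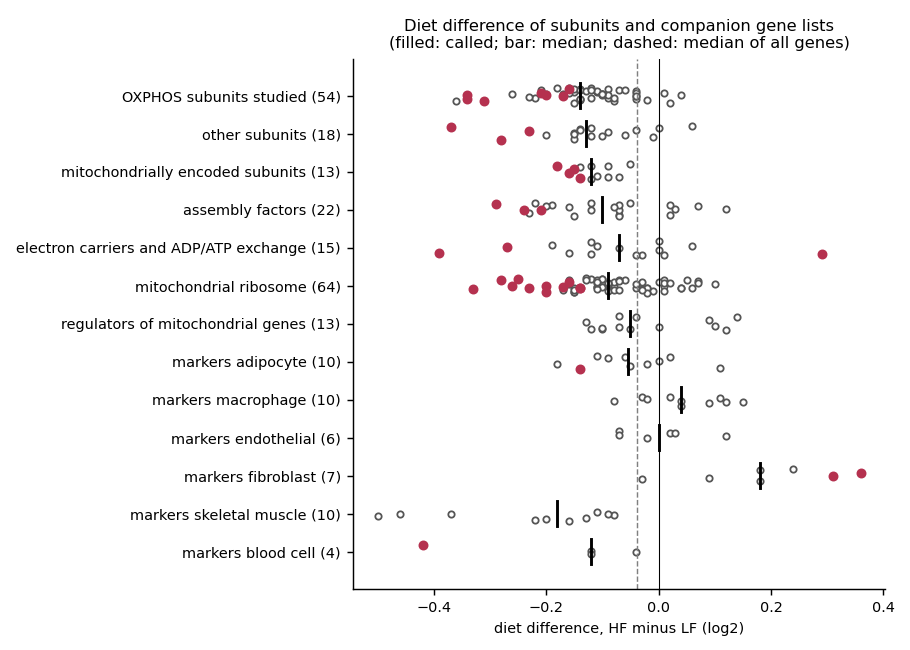
Diet difference (HF minus LF, log2) of each gene of the OXPHOS subunits and of 12 of the 13 companion and marker lists (tissue isoforms are not drawn), with the number tested in brackets; filled points were called, bars are list medians and the dashed line is the median of all genes. Medians of the mitochondrial lists lie at or below -0.05, and that of the fibroblast markers is 0.18.

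Markers of other cell types were read in the same way. Of 7 fibroblast markers 6 were higher under HF and 2 were called, PDGFRA (0.31) and COL1A2 (0.36), and the list level ranged from -0.45 to 0.49 under HF and from -0.78 to 0.79 under LF. Skeletal muscle markers, of mitochondria-rich tissue, were lower in 10 of 10 cases with a median of -0.18 and 0 calls (limma, 0 with unadjusted p under 0.05). Their level ranged from -0.69 to 1.83 under HF and from -0.53 to 2.29 under LF, and MYL1 and MYH2 lay far below the array median, at -3.67 and -4.38 under HF. Of 10 adipocyte markers 1, CEBPA, was called (-0.14), with a list median of -0.06. Macrophage markers (10 tested, median 0.04) and endothelial markers (6 tested, median 0.00) had 0 calls and 0 unadjusted p under 0.05. Of 4 blood cell markers PPBP was called (-0.42). The part of these lists in the OXPHOS differences was not tested.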

How the data were processed

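Each of 48 arrays gave deposited scanner intensities, from Agilent Feature Extraction 10.7.3.1 per the file headers. The authors' deposited table (38987 probes) equalled the log2 median signal minus its array median and served as an alternative; submitters' notes name R 2.10.0. Here log2 processed signal was centred on each array's median over 44356 probes above background (9 of 12 arrays of a group). Flagged spots (227) were dropped from their array. Symbols came from the array and RefSeq names (27239 probes, 13258 symbols); no genome was used. A group-means model was fitted with limma 3.58.1 in R 4.3.3. Replicates were separate pigs. Diet is HF minus LF, line is low minus high RFI. The fit was tested on simulated data with known differences.

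Subunits, lists and tests were chosen with earlier results of these data known. Values were given for called subunits and for the largest and smallest diet and the largest line difference of each complex, and for up to 3 called genes per list; NDUFV1, others near the threshold, and further genes were named after their values were seen. Alternatives changed scaling, background, filter, probe choice, blocks (slide, scan date, position, replicate number), weights, test and arrays. The number of arrays limits precision.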

Additional observations from a re-analysis of the deposited data

How the results depend on the processing

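The 7 subunits called by diet became 32 with array weights, 30 without the 3 arrays of lowest array weight (55.6%, against 11.5% of all genes called lower) and 0 on scan date 2 alone; leaving out 1 array gave 7 to 22. Within low RFI pigs the 0 calls among 54 subunits became 1 with the replicate block (5.96% of all genes called) and 5 with array weights (10.2%). They became 5 without the 3 lowest-weight arrays (5.78%), and 0 to 5 leaving out 1 array. Within high RFI pigs the 0 calls became 3 with slide as a block (3.73% of all genes called) and 2 with scan date as a block (2.64%). They became 1 on scan date 1 alone (0.834%) and 3 with the replicate block (4.48%). With array weights there were 13 (6.16%), without the lowest-weight arrays 4 (1.85%), and leaving out 1 array 0 to 4. Of all genes, 1421 were called by diet, 671 on scan date 1 alone and 264 on date 2 alone. By line 132 were called, then 229 with slide, 207 with scan date and 53 with array position as a block, 0 on scan date 2 alone, 293 with the replicate block, 487 with array weights and 239 without the lowest-weight arrays (102 to 260 leaving out 1 array, 260 without LF low RFI replicate 7). Calls by line or interaction among subunits were 0 in every setting, and complex medians for diet stayed below 0, from -0.17 to -0.08 (complex I), -0.18 to -0.10 (II), -0.27 to -0.12 (III), -0.18 to -0.08 (IV) and -0.18 to -0.08 (V) apart from single-array omissions; those for line took both signs. ATP5O, at 0.01 for diet, turned to -0.02 with the mean of all probes, -0.06 on scan date 1, -0.02 with array weights, -0.002 without the 3 arrays with the fewest probes above background and -0.02 without the lowest-weight arrays (-0.02 to 0.03 leaving out 1 array). NDUFB7, at 0.02, turned to -0.03, -0.004 and -0.03 with array weights and without these 2 sets of 3 arrays (-0.02 to 0.03 leaving out 1 array). NDUFV1, at 0.04, turned to -0.02 on scan date 1, -0.08 with array weights and -0.03 without the lowest-weight arrays (-0.02 to 0.06 leaving out 1 array). On scan date 2 the line differences of SDHD and UQCRC2 turned to 0.05 and 0.09. Replicate numbers were not taken to pair the pigs, as the labels do not say what a number marks. Of 72 same-numbered pairs, 45 correlated over 0.1 (lowest -0.211). The median correlation was 0.156 for the same number and -0.0278 for different numbers, and 17 of 48 arrays correlated best with their own number. Each number lay on 1 slide, so these correlations cannot tell a pairing from a slide. The replicate block gave 9 subunits called by diet (16.7%, against 11.1% of all genes called lower). Omitting arrays and the weight-based omission were chosen after seeing the data. Causes of these changes were not tested.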
